A study of Rattus norvegicus with 10 samples.

Results

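The comparison set 3 clones of HSC-2, a rat cell line of hepatic stellate origin, that overexpress rno-miR-146a (S1, S4 and S5) against 1 HSC-2 line transfected with a scrambled control (scr). Each line was hybridised at passages 42 and 43, which gives 6 clone arrays and 2 scrambled arrays, 8 of the 10 arrays of the series. The other 2 arrays are of untransfected HSC-2 cells at the same passages. They entered no test and are given beside some of the named genes as a description. All lines derive from Wistar rat stellate cells and were grown in high glucose DMEM with fetal bovine serum and antibiotics. The design text calls the scrambled control GFPscr and counts it among the controls beside HSC-2. Whether the scrambled line is a single clone or a pool is not stated in the sources used here. With 1 scrambled line, a change made by miR-146a and a property of that line cannot be told apart, and no source says that the passages are separate cultures. The p-values below therefore measure the spread between these clones or between these passages.

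Hepatic stellate cells store retinoids in the healthy liver. On injury they become contractile, matrix-producing cells marked by smooth muscle actin. MicroRNAs such as miR-146a pair through their seed with messenger RNAs and lower the output of those messages. Irak1, a kinase, and Traf6, an adaptor, both of Toll-like and interleukin-1 receptor signalling, are the best known messages to which miR-146a binds. The gene of miR-146a is itself induced by NF-kB.

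The mature sequences are shown because the seed (bases 2 to 8, in capitals) defines which messages the overexpressed miRNA can pair with. They are RefSeq entries on rat build GRCr8, with miR-146a-5p at chr10:28350053-28350074 on the minus strand.
rno-miR-146a-5p: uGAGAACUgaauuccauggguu
rno-miR-146b-5p: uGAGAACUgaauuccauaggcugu
rno-miR-146a-3p: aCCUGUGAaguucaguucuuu
The miR-146a-5p and miR-146b-5p seeds were identical, and these were the only 2 mature entries of the table with that seed. The passenger strand, miR-146a-3p, carries another seed. The level of the miRNA itself is not analysed here.

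The 3 clones lay close together and apart from the scrambled line. Correlations of log2 intensity over the 27356 probe sets tested ran from 0.9866 to 0.9966 between arrays of different clones, and from 0.9692 to 0.9803 between clone and scrambled arrays. The first principal component held 55.2% of the variance, with scrambled arrays at -49.89 and -53.26 and clone arrays between 9.384 and 27.45. The second component held 18.19% and put every passage 42 array on one side of 0 and every passage 43 array on the other. Array medians ran from 97.2 to 103.38 intensity units over all 10 arrays. In all, 14.64% of values sat at the table's lowest value of 20 (log2 4.32), called the floor below.

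Of 15 stellate cell identity genes tested, some were bright on all 8 arrays and others were dim. The intermediate filament gene Vim lay between 14.37 and 14.60 log2 units on all 8 arrays, and the collagen gene Col1a1 between 14.13 and 14.47. The quiescence markers Gfap and Ngfr were dim, at 5.25 log2 units or less on the scrambled arrays and 4.98 or less on the clone arrays. Rgs5 and Reln of the same list were dim too, reaching 4.50 and 5.38, and Des lay between 6.43 and 7.55. Dcn was at 4.995 to 5.92 on the scrambled arrays and 6.64 to 10.44 on the clone arrays. Of the markers of other liver cells, Ptprc (leukocytes) reached 4.32, Krt19 (bile duct) 4.58, Pecam1 (endothelium) 4.89 and Alb (hepatocytes) 5.26 log2 units on the 8 arrays. Other members of those lists were bright on all of them: the endothelial genes Eng and Egfl7 lay between 8.31 and 8.82, Cd14 of the leukocyte list between 8.95 and 9.48, and Spp1 of the biliary list between 10.38 and 12.20. The summed intensity of the biliary list was 1625.2 and 1747.9 on the scrambled arrays and 1835.7 to 5256.4 on the clone arrays, that of the endothelial list 1719.6 and 1801.2 against 1531.1 to 1671.1. It was 1971.9 and 2052.3 against 1774.1 to 2066.9 for leukocytes, and 786.93 and 792.13 against 810.49 to 849.66 for hepatocytes. The biliary sum was mostly that of Spp1, as Krt8, the next brightest member, reached 8.55 log2 units at most. None of 15 hepatocyte, 15 endothelial and 8 biliary genes tested passed the line-mean test described next. The array fit, also described there, called Fgg of the hepatocyte list higher (limma adjusted p = 0.0272). It called Flt1 and Tek of the endothelial list lower (limma adjusted p = 0.00609 and 0.0413). Of 20 leukocyte genes, Csf1r, a macrophage growth factor receptor, was the single one called from line means. It was at 5.23 and 5.53 log2 units on the scrambled arrays and between 4.33 and 4.67 on the clone arrays. The array fit called Csf1r and Cd3e lower (limma adjusted p = 0.0123 and 0.0497). Of 19 portal fibroblast and mesothelial genes, Gpm6a (1.49), a neuronal and mesothelial membrane glycoprotein, was called higher and Msln (-1.36), the mesothelial surface protein mesothelin, lower. In this list the array fit called Gpm6a and Cnn1 higher and Thy1 lower. The summed intensity of that list ran from 15952 to 17860 on the scrambled arrays and from 7951.5 to 11854 on the clone arrays. Fbln2 and Thy1 were among its brightest members, and over its 19 genes the median difference was -0.032, with 8 above and 11 below 0. The part of such cells in the results was not tested, and in bulk RNA fewer cells of a type and less RNA per cell cannot be told apart.

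The main test asked which genes differed between the clones as a group and the scrambled line. Passages were averaged first, so that 3 clone means stood against 1 scrambled mean in limma, with 2 residual degrees of freedom and the lone scrambled line assumed to vary like the clones. At an adjusted p under 0.05 (Benjamini-Hochberg), 2212 of 27356 probe sets (8.09%) were called, 1208 higher (4.42%) and 1004 lower (3.67%) in the clones. The median size of the called differences was 0.68 log2 units against 0.13 over all probe sets tested, and 609 exceeded 1 log2 unit (389 higher, 220 lower). All 6 clone arrays lay outside the range of both scrambled arrays for 1991 of the 2212 called probe sets (90.0%), against 25.5% of all tested. A second limma fit kept the 8 arrays separate with 1 coefficient a line, so that its spread is that between passages. It called 2308 probe sets (8.44%), of which 1398 were also called from line means. Same-numbered passages deviated together in all 6 pairs of lines, and with the passage as a block this second fit called 4732 (17.3%). The number of line-mean calls depended on which clones were kept. Without S1, and likewise without S5, 0 probe sets passed in limma (6120 and 5186 at an unadjusted p under 0.05). Without S4 1243 passed. The spread in these fits comes from the clones that remain, so the counts do not say which clone carries the differences. Line means of passage 42 alone gave 100 calls, and those of passage 43 alone 1095. An exact permutation of 4 lines cannot go below p = 0.25.

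**Figure D1:**
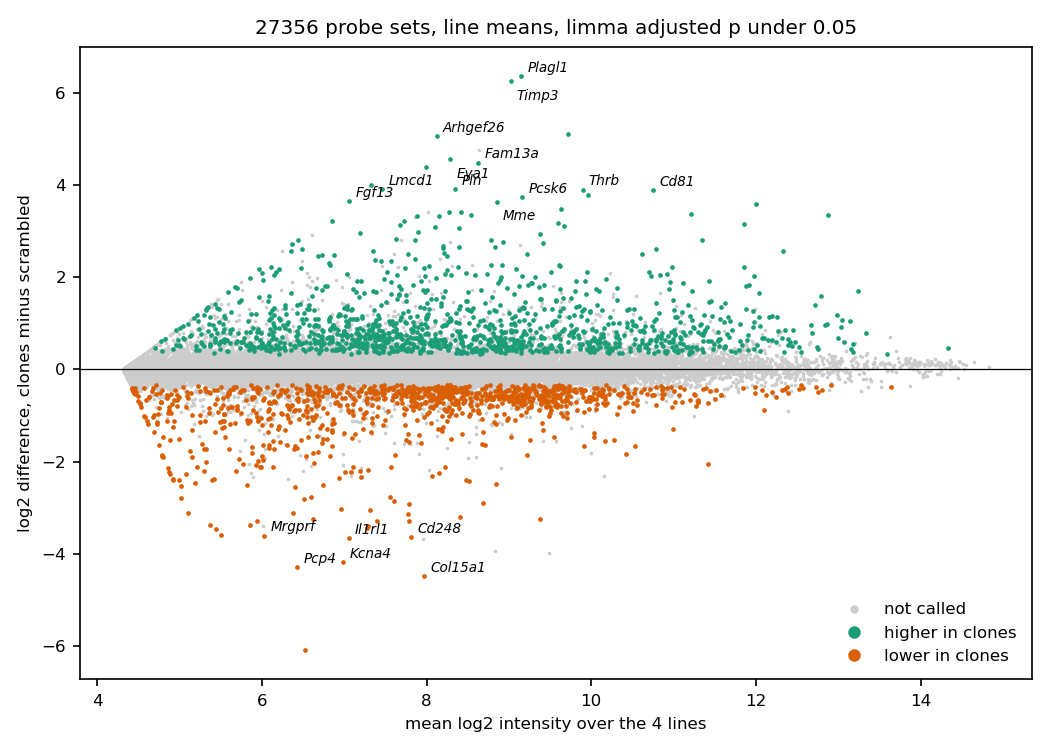
Each point is 1 of 27356 probe sets, with the mean log2 intensity over the 4 lines on the x axis and the log2 difference between the mean of the 3 clones and the scrambled line on the y axis. Green (1208) and orange (1004) points passed an adjusted p of 0.05 in the line-mean fit, and the slanted lower left edge is formed by probe sets at the floor on 1 side.

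Plagl1, an imprinted zinc finger transcription factor, was at 4.41 and 4.32 log2 units on the scrambled arrays and between 10.21 and 11.24 (median 10.79) on the clone arrays. Its difference of 6.38 ± 0.20 log2 units (SE, 3 clones against 1 line, limma adjusted p = 0.00416) was the largest rise among named genes, and the untransfected arrays, at 4.32 and 4.40, sat with the scrambled ones. Timp3, an inhibitor of matrix metalloproteases, was at the floor on both scrambled arrays and between 9.97 and 11.54 on the clone arrays. That is at least 76.9-fold higher in the clones, and a second Timp3 probe set, which was above the floor in every line, gave 5.11 ± 0.49 log2 units. Untransfected cells lay between both groups for Timp3, at 6.87 and 7.98.

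Arhgef26, a guanine nucleotide exchange factor, was at the floor on both scrambled arrays and between 9.19 and 9.72 on the clone arrays, at least 33.5-fold higher. A second Arhgef26 probe set was above the floor in the scrambled line, with a mean of 5.71. It gave a smaller difference of 3.42 ± 0.14 log2 units. Eya1, a transcriptional coactivator and phosphatase of organ development, was at 5.06 and 4.66 on the scrambled arrays and between 9.04 and 9.74 on the clone arrays, 23.7-fold higher. Thrb, a thyroid hormone receptor, rose by 3.91 ± 0.17 log2 units, with 7.50 and 6.44 on the scrambled and 10.37 to 11.20 on the clone arrays. That clone and scrambled arrays did not overlap was a condition for naming the largest rises. The untransfected values of Eya1 (5.82 and 5.40) and Thrb (7.75 and 8.40) lay below every clone array. Fgf13, a fibroblast growth factor family member that stays inside the cell, was at the floor on both scrambled arrays and at least 12.6-fold higher in the clones.

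Other rises followed another order of the 5 lines. Cd81, a tetraspanin of the cell surface, was at 7.59 and 8.07 on the scrambled arrays and between 11.45 and 12.05 on the clone arrays (14.9-fold higher). Its untransfected arrays, at 11.48 and 11.99, lay inside the clone range, so that the scrambled line was the one that stood apart. The same held for Lmcd1 (difference 3.92), a cofactor of muscle gene transcription, and for Pln (3.92 ± 0.65), phospholamban, which regulates the calcium pump of the sarcoplasmic reticulum. Pln spread widely among the clone arrays, from 7.36 to 10.99, with each line higher at passage 43. Of the 15 largest rises, the untransfected arrays lay below all clone arrays in 11, inside the clone range in 3, and reached above it with 1 array in the last, Cdh11. The remaining genes of that group were Fam13a (4.49), the proprotein convertase Pcsk6 (3.75), the peptidase Mme (3.65), the adhesion protein Cdh11 (3.49), Pappa2, which cleaves IGF binding proteins (3.41), and the annexin Anxa3 (3.37).

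**Figure D2:**
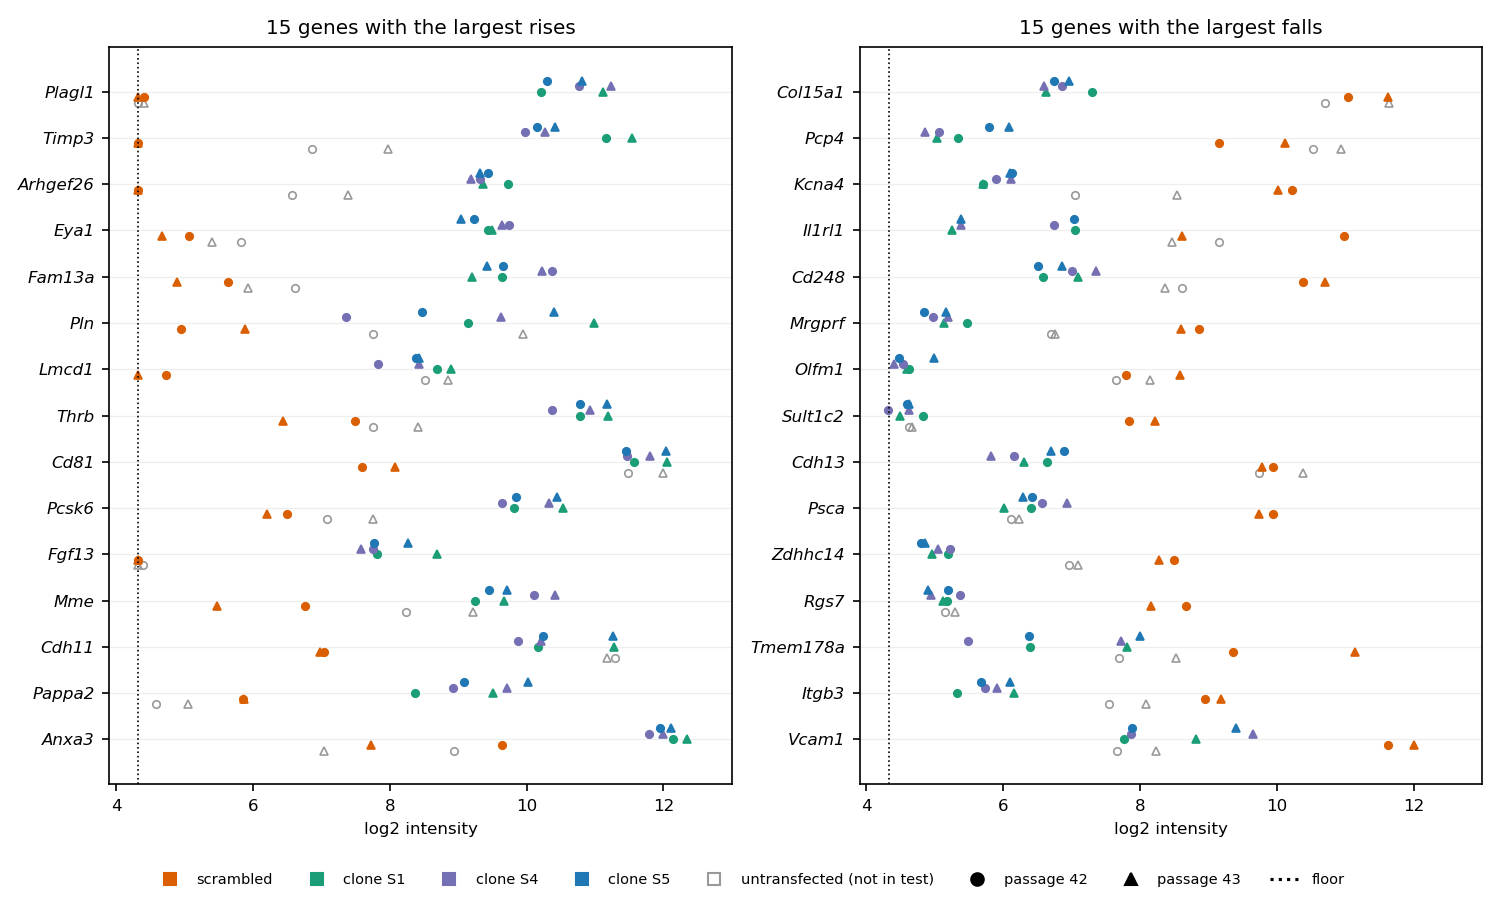
Log2 intensity (x axis) on every array for the 15 genes with the largest rises (left) and the 15 with the largest falls (right), with circles for passage 42, triangles for passage 43 and a dotted line at the floor. The naming rule required the 6 clone arrays to lie on one side of both scrambled arrays in all 30 genes. The open untransfected symbols, which played no part in that rule, lie below all clones in 11 rises and above all clones in 10 falls.

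Col15a1, a collagen of the basement membrane zone, was the gene with the largest fall by the naming rule, at 11.04 and 11.63 log2 units on the scrambled arrays and between 6.60 and 7.30 (median 6.80) on the clone arrays, a fall of 4.49 ± 0.11 (limma adjusted p = 0.00381). A second Col15a1 probe set, named after its values were seen, differed by -6.10. The untransfected arrays, at 10.70 and 11.63, sat with the scrambled line. Pcp4, a small calmodulin-binding peptide, was at 9.16 and 10.12 on the scrambled arrays and between 4.85 and 6.09 on the clone arrays, 19.5-fold lower. Cdh13, a cadherin without a cytoplasmic tail, fell by 3.44 ± 0.33, and its untransfected arrays (9.74 and 10.39) were near the scrambled ones (9.94 and 9.79). Il1rl1, the receptor of interleukin-33, was at 10.98 and 8.61 on the scrambled arrays and between 5.25 and 7.05 on the clone arrays. It was lower at passage 43 than at passage 42 in every line, and the difference was -4.03 at passage 42 and -3.27 at passage 43 (both passages -3.65 ± 0.082).

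Kcna4, a voltage-gated potassium channel, was at 10.22 and 10.01 on the scrambled arrays, between 5.70 and 6.13 on the clone arrays and at 7.05 and 8.55 on the untransfected ones. Cd248 (endosialin, a surface protein of pericytes and fibroblasts) fell by 3.64 ± 0.21, with 10.38 and 10.70 against 6.51 to 7.35, and the integrin subunit Itgb3 fell by 3.25 ± 0.081, with 8.95 and 9.18 against 5.32 to 6.15. For Psca, Sult1c2 and Rgs7 the untransfected arrays lay inside the clone range. The sulfotransferase gene Sult1c2, for one, was at 7.84 and 8.22 in the scrambled line, between 4.32 and 4.82 in the clones and at 4.63 and 4.66 in untransfected cells. Vcam1, the adhesion molecule for leukocytes, was brightest in the scrambled line too, at 11.62 and 12.01, against 7.77 to 9.65 on the clone arrays and 7.66 and 8.24 on the untransfected arrays. Of the 15 largest falls, the untransfected arrays lay above all clone arrays in 10 and inside the clone range in 3. In the array fit 14 of these 15 falls and all 15 rises passed as well. Mrgprf (-3.61), Olfm1 (-3.59), Zdhhc14 (-3.38) and Tmem178a (-3.29) complete the group.

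The gene lists below are described by how many of their members passed the line-mean test, beside 578 of 13241 genes (4.37%) called higher and 646 (4.88%) called lower with 1 probe set a gene. The array fit called 638 genes higher (4.82%) and 613 lower (4.63%), and with the passage as a block 1274 (9.62%) and 1344 (10.2%). The median difference over all genes was -0.019 log2 units. The lists share the same scrambled arrays and the same test, and many overlap.

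Among messages reported as bound by miR-146a, 0 of 29 tested were called higher and 3 (10.3%) lower, with a median difference of -0.015 and 15 of 29 below 0. The kinase gene Irak1 was at 11.16 and 11.11 log2 units on the scrambled arrays and between 10.79 and 11.01 on the clone arrays. The groups did not overlap, but the difference of -0.25 ± 0.081 did not pass (limma adjusted p = 0.147). Traf6, at 8.30 and 8.52 against 7.91 to 8.22, gave -0.32 ± 0.085 (adjusted p = 0.108). The signal transducer Smad4 overlapped between groups, at 10.53 and 10.73 against 10.39 to 10.65. Egfr, the epidermal growth factor receptor, was dim in both, with a difference of -0.63 ± 0.29 (adjusted p = 0.251), and was brighter in untransfected cells, at 8.45 and 9.07. The members that fell were the DNA repair gene Brca1 (-1.02), the bacterial lipoprotein receptor gene Tlr2 (-0.89) and the chemokine receptor gene Cxcr4 (-0.51). Brca1 was at 7.48 and 7.17 on the scrambled arrays and between 5.90 and 6.69 on the clone arrays. Its untransfected arrays, at 6.51 and 5.37, were not above the clones, so that the scrambled line was the high one. For Tlr2 the untransfected arrays, at 5.34 and 5.11, lay above every clone array (4.45 to 4.89). Cxcr4 was above the clone arrays in the scrambled passage 43 array alone, and its difference was 0.050 with passage 42 only. With the passage as a block, the array fit called 3 members higher and 4 lower.

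Of 40 inflammatory and NF-kB genes tested, 0 rose and 7 fell (median -0.077), among them Il1rl1 and Vcam1 above. Cxcl10, a chemokine of the interferon response, was at 8.44 and 8.93 on the scrambled arrays and between 6.21 and 6.86 on the clone arrays, 4.69-fold lower, with untransfected arrays at 6.86 and 6.46. Ptgs1, the constitutive cyclooxygenase, fell by 2.42 ± 0.17, from 10.50 and 10.17 to between 6.92 and 8.63. The inducible cyclooxygenase Ptgs2 had values on the other side, 7.79 and 6.72 against 8.41 to 9.94, which the line means did not call (1.72 ± 0.39, adjusted p = 0.0848). The NF-kB feedback genes Nfkbiz (0.996 ± 0.26, adjusted p = 0.105) and Tnfaip3 (0.74 ± 0.40, adjusted p = 0.316) were not called from line means either. The array fit called these 3 genes higher (adjusted p = 0.0223, 0.00439 and 0.0332) and 9 members lower. With the passage as a block it called 6 members of this list higher and 13 lower.

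Interferon and antigen processing genes depended on 1 array. Of 32 tested, 1 was called higher and 6 lower (median -0.11). The mean log2 level of the list was 7.54 on the scrambled passage 42 array and 8.30 on the scrambled passage 43 array, against 7.62 to 7.86 on the clone arrays and 7.58 and 7.62 on the untransfected ones. With passage 42 alone the median difference was 0.14, and with passage 43 alone it was -0.33. Oasl, a relative of the antiviral oligoadenylate synthetases, was above the clones at both passages, at 6.93 and 7.26 against 5.53 to 5.83. Irf7, a transcription factor of the interferon response, was at 7.95 and 10.00 on the scrambled arrays, and the former value lay below all 6 clone values. Its difference of -0.70 turned to 0.15 at passage 42. Ifit3, an antiviral effector, was at 4.84 and 6.57 against 4.32 to 4.43, and Ifi44 was at 7.005 and 8.33 against 6.59 to 7.12.

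The 250 bases before the start of Ifit3 are shown because these genes are driven through interferon-stimulated response elements (chr1:241527076-241527325, plus strand, RefSeq on GRCr8). Capitals mark the match to the motif of GAAA, 2 bases of any kind and GAAA again, searched on both strands and here on the opposite one.
Ifit3: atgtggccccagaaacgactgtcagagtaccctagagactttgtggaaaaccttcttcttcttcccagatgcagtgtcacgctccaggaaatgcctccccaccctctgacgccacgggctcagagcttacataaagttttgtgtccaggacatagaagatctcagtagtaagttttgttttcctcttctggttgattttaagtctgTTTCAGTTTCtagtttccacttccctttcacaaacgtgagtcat
The motif was in 16 of 26 promoters of the list (61.5%) and in 3.41% of all 33469 promoters of the table. Among the 6 members that were called lower and have a promoter there, 4 held it.

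Contractile genes were called higher more often than lower. Of 32 tested, 7 were called higher and 2 lower, and the median difference was 0.31 with 24 of 32 above 0. Acta2, smooth muscle actin, was at 10.13 and 10.22 log2 units on the scrambled arrays and between 12.19 and 12.74 on the clone arrays, 4.69-fold higher (2.23 ± 0.15, limma adjusted p = 0.0137). Tagln, an actin-binding protein of smooth muscle, rose by 1.70 ± 0.19, from 12.12 and 11.81 to between 13.31 and 14.15, and the tropomyosin Tpm1 by 1.59 ± 0.13. All 3 were as high or higher in untransfected cells: Acta2 was at 12.91 and 13.23 there, above every clone array. The scrambled line was thus the low one. Des, desmin of the muscle and stellate cell cytoskeleton, fell by 0.73 ± 0.10, and Fap, a protease of activated fibroblasts, fell by 1.70 ± 0.22. The differences of Postn and Thy1 were wide but uneven among clones. Postn, the matricellular protein periostin, was at 5.25 and 4.88 on the scrambled arrays and from 8.53 to 11.92 on the clone arrays (4.76 ± 1.1, adjusted p = 0.0868). Thy1, a surface marker of fibroblasts, was at 11.71 and 11.85 against 6.42 to 8.78 (-3.93 ± 0.91, adjusted p = 0.0870). Both passed in the array fit, whose spread leaves out that between clones. With the passage as a block, that fit called 15 members higher and 5 lower.

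Of 32 genes of collagens and their processing, 6 rose and 3 fell. Col4a1 and Col4a2, the chains of basement membrane collagen IV, rose together. Col4a1 was at 9.56 and 9.05 on the scrambled arrays and between 12.49 and 13.06 on the clone arrays (a rise of 3.59 ± 0.11 log2 units), and Col4a2 at 9.43 and 9.07 against 11.54 to 12.37 (6.97-fold higher). Their untransfected arrays lay with the clones, at 12.61 and 12.94 for Col4a1 and 11.80 and 12.39 for Col4a2. The microfibrillar chain Col6a1 fell by 1.66 ± 0.19, from 11.36 and 12.20 to between 9.87 and 10.38. Its partner Col6a2 had a difference of -1.81 ± 0.31 (adjusted p = 0.0519), and no overlap between groups. The fibrillar Col1a1 differed by 0.20 ± 0.061 (adjusted p = 0.134).

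Col4a1 and Col4a2 are transcribed in opposite directions from neighbouring starts, and the 76 bases between the RefSeq starts are printed for that reason (chr16:84885521-84885596, plus strand, GRCr8).
Interval between Col4a2 and Col4a1: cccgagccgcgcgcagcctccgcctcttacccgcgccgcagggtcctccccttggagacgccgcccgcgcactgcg
Their base composition was 78.9% G or C, and CCAAT was found 0 times on either strand.

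Among proteoglycans and glycoproteins of the matrix, 12 of 50 rose and 7 fell, and the median difference was 0.45. Ltbp2, a microfibril protein related to the TGF-beta binding proteins, rose by 2.07 ± 0.14, from 9.67 and 9.06 to between 11.05 and 11.91. The laminin chain Lama2 fell by 2.54 ± 0.22 and was lower still on the untransfected arrays, at 5.49 and 5.28 against 5.50 to 6.09 in the clones. Srgn, the core protein of secretory granule proteoglycan, fell by 2.51 ± 0.23, from 6.89 and 8.53 to between 4.75 and 5.57, and was highest in untransfected cells (8.89 and 9.78). Aspn, a small leucine-rich proteoglycan, was at 4.800 and 8.11 in the scrambled line and did not leave the floor in any clone, which makes it at least 4.38-fold lower in the clones. That bound rested on passage 43, where the difference was -3.78 against -0.48 at passage 42, and the array fit did not call Aspn (adjusted p = 0.141). The array fit with the passage as a block called 24 members higher and 7 lower.

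Of 39 matrix proteases and inhibitors, 8 rose and 3 fell. Beside Timp3 and Pcsk6, the aggrecan-cleaving proteases Adamts9 (2.39 ± 0.078) and Adamts1 (2.05 ± 0.12) rose, the latter from 9.11 and 9.50 to between 10.77 and 12.18. In untransfected cells Adamts9 was at 7.91 and 8.89, around the clone values of 8.19 to 8.72, and Adamts1 at 10.08 and 10.02. Mmp2, gelatinase A, was at 11.98 and 12.97 log2 units on the scrambled arrays and between 7.49 and 9.85 on the clone arrays. The groups lay far apart, but the clones differed among themselves and the difference of -3.98 ± 0.69 was short of the threshold (adjusted p = 0.0518). It passed in the array fit (adjusted p = 0.00300). With the passage as a block, that fit called 8 members higher and 10 lower.

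TGF-beta and BMP genes rose more often than they fell: 10 of 44 (22.7%) were called higher and 1 lower (2.27%), with a median of 0.24. Among ligands, Bmp4 was at 6.54 and 5.63 on the scrambled arrays and between 8.69 and 9.44 on the clone arrays, 8.42-fold higher, with untransfected arrays at 6.66 and 6.94. Tgfb3 rose by 1.51 ± 0.22 and was higher still in untransfected cells, at 11.51 and 11.89 against 10.30 to 11.18. Bambi, a decoy receptor for these ligands, rose by 1.53 ± 0.061, and untransfected cells, at 10.34 and 10.70, lay above every clone array (9.437 to 10.145). Smad3, a signal transducer of TGF-beta receptors, rose by 1.18 ± 0.14, from 7.31 and 6.94 to between 7.81 and 8.46. Its untransfected arrays were at 8.42 and 8.79. With the passage as a block the array fit called 14 higher and 6 lower.

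Growth factors and their receptors gave 12 rises and 4 falls among 55. Fgf1, an acidic fibroblast growth factor, rose by 2.83 ± 0.17, from 5.15 and 5.86 to between 8.11 and 8.63. Fgf18 rose by 2.49 ± 0.085, with each clone higher at passage 43. Pdgfra, a receptor of platelet-derived growth factor, was at 8.20 and 9.70 against 6.72 to 7.84 (-1.63 ± 0.36, adjusted p = 0.0791). Of 41 guidance genes 8 rose and 2 fell. The secreted semaphorin Sema3e was at 6.55 and 6.79 on the scrambled and 8.17 to 10.27 on the clone arrays, the ephrin receptors Epha7 and Ephb3 rose by 1.43 and 1.32, and the secreted protein Olfm1 fell as given above.

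Lipid storage and retinoid genes gave 2 rises and 3 falls among 40. Plin2, the coat protein of lipid droplets, was at 8.54 and 8.69 on the scrambled arrays and between 5.94 and 6.23 on the clone arrays, 5.65-fold lower. Star, which moves cholesterol into mitochondria, was at 10.10 and 9.86 against 6.60 to 7.62, 7.57-fold lower, and untransfected cells were at 10.03 and 10.76. Lhx2, a homeobox gene tied to stellate cell quiescence, fell by 1.07 ± 0.10. Aldh1a3, which makes retinoic acid, rose by 1.12 ± 0.13. Among 38 genes of cholesterol and fatty acid synthesis 3 rose and 3 fell, with the cholesterol exporter Abca1 lower by the most (-1.62 ± 0.15, from 9.81 and 9.97 to between 8.07 and 8.48). Of 40 antioxidant genes 0 rose and 1 fell, the extracellular glutathione peroxidase Gpx3, from 12.92 and 13.002 to between 10.43 and 11.31.

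Proliferation genes were lower in the clones by small amounts. All 59 mitosis genes and all 55 DNA replication genes tested had a difference below 0, against 7172 of 13241 genes. In the line-mean fit 27 mitosis genes (45.8%) and 19 replication genes (34.5%) were called lower and 0 higher, with medians of -0.43 and -0.44. Smc2, a condensin subunit, was at 10.09 and 9.99 on the scrambled arrays and between 8.85 and 9.58 on the clone arrays (-0.79 ± 0.087, limma adjusted p = 0.0253). The mitotic genes Cdca3 (-0.74), Cenpk, of the centromere (-0.71), and Ncaph, of condensin (-0.69), gave like values. Among replication genes, E2f2, a cell cycle transcription factor, was at 7.95 and 7.56 against 5.96 to 6.60 (-1.44 ± 0.11), E2f8 fell by 0.95 ± 0.11, and the clamp loader subunit Rfc5 by 0.88 ± 0.064. The cyclin gene Ccnd1 fell by 0.51 ± 0.058. Of 33 genes of Cdk inhibitors and the p53 response 1 rose, the growth arrest gene Gadd45b (1.29), and 1 fell, Ccnd1.

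The size of these differences varied with the passage. The mean log2 level of the mitosis list was 9.77 and 9.52 on the scrambled arrays, 9.54 on each clone array of passage 42 and between 8.87 and 9.004 at passage 43. In untransfected cells it was 9.61 and 8.57. The median difference of the mitosis list was -0.22 at passage 42 and -0.64 at passage 43, and that of the replication list -0.31 and -0.60. The array fit without the passage called 0 mitosis genes and 4 replication genes (at 8.44% of all probe sets), and with the passage as a block 31 and 36, all lower.

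The 250 bases before the start of Smc2 are printed because genes of mitosis share a cell cycle homology region (chr5:71602155-71602404, plus strand, RefSeq on GRCr8). Capitals mark a match to TTTGAA on the opposite strand. Of the 4 mitosis genes named above, the other 3 (Cdca3, Cenpk and Ncaph) have no match in this window.
Smc2: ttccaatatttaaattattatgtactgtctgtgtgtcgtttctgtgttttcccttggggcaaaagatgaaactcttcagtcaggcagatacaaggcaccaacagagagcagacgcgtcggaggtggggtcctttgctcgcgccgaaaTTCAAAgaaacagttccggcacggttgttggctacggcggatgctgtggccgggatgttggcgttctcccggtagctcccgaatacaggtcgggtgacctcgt
On either strand, TTTGAA was in 24 of 51 promoters of mitosis genes (47.1%), in 3 of 49 promoters of replication genes (6.1%) and in 16.2% of all promoters. Among the 23 mitosis members that were called lower and have a promoter there, 9 held it. CCAAT was in 40 of 51 (78.4%), 29 of 49 (59.2%) and 34.0%.

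**Figure D3:**
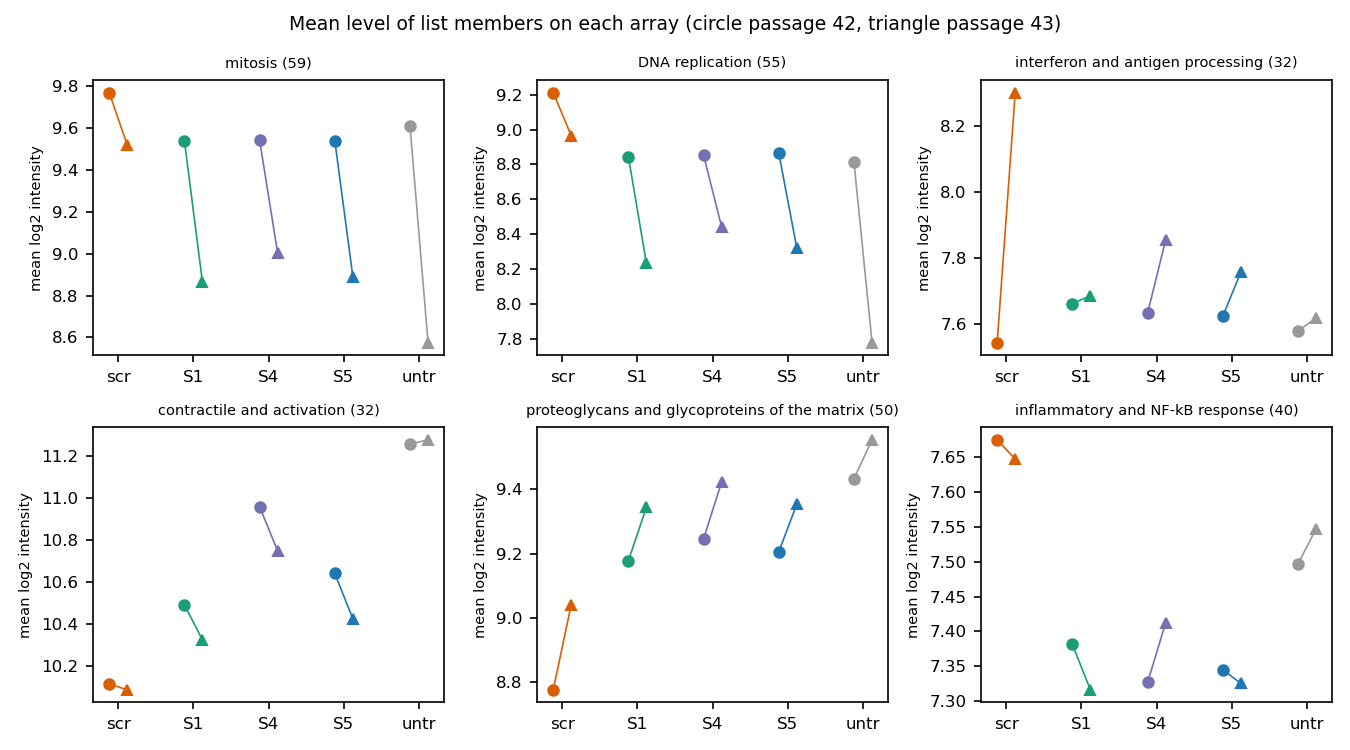
Mean log2 intensity (y axis) over the members of 6 gene lists on each array, by line on the x axis, with circles for passage 42 and triangles for passage 43 and the number of genes in brackets. Mitosis and replication genes were lower at passage 43 in every line, and the interferon mean of the scrambled line was 7.54 at passage 42 and 8.30 at passage 43.

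Adhesion genes were called both ways, with 6 of 35 cadherin and integrin genes higher and 5 lower. Itga6, a laminin-binding integrin subunit, was at 6.40 and 4.78 on the scrambled arrays and between 7.48 and 8.44 on the clone arrays. Its untransfected arrays were at 8.50 and 8.23. Cdh11 rose while Cdh13 and Itgb3 fell. Pdpn, podoplanin, was at 6.89 and 7.33 against 8.78 to 10.42, and at 5.50 and 5.22 in untransfected cells (2.71 ± 0.66, adjusted p = 0.0939).

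Among 22 imprinted genes, Plagl1, Mest and Igf2r rose and H19 fell. Mest was at 7.03 and 5.95 on the scrambled arrays and between 8.26 and 8.59 on the clone arrays (1.93 ± 0.055). H19, a long non-coding RNA, was at 8.28 and 7.60 against 5.77 to 6.28 (-1.87 ± 0.090), and its untransfected arrays, at 6.09 and 6.38, were near the clones. Igf2r, which clears insulin-like growth factor 2, rose by 0.81 ± 0.068, from 10.47 and 11.40 to between 11.58 and 11.96. The array fit did not call it (limma adjusted p = 0.0944), and untransfected cells were higher still, at 12.39 and 12.82. A second Igf2r probe set (0.88 ± 0.17) was not called from line means (limma adjusted p = 0.0612).

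Wnt and Notch genes gave 4 rises and 4 falls among 46. The Wnt receptor Fzd8 rose by 1.89 ± 0.068 and the transcription factor Tcf7l2 by 1.33 ± 0.069, while Axin2, a feedback inhibitor of Wnt signalling, fell by 0.89 ± 0.12. Untransfected cells lay above all clone arrays for Fzd8, at 8.72 and 8.89 against 7.78 to 8.29. They lay below all clone arrays for Tcf7l2 (9.02 and 8.62) and inside the clone range for Axin2 (6.14 and 5.996). Wnt4 and the Notch target Hey2 were uneven among clones: Wnt4 was between 8.62 and 9.57 in S1 and S5 and at 6.41 and 7.26 in S4, and Hey2 was likewise lowest in S4, at 6.19 and 5.45. The line means called neither (adjusted p = 0.325 and 0.272), whereas the array fit called both higher (0.0290 and 0.0183). Of 48 developmental transcription factors 8 rose and 4 fell. Beside Eya1 and Thrb, Foxa2, a forkhead factor of endoderm, was at 7.75 and 6.90 on the scrambled arrays and between 9.43 and 11.00 on the clone arrays, and Foxp2 rose by 1.81 ± 0.14. Untransfected cells lay below all clone arrays for Foxa2 (8.40 and 7.26) and inside the clone range for Foxp2 (7.07 and 7.28).

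Of 43 genes of endoplasmic reticulum and amino acid stress 5 rose and 1 fell (median 0.16), among them the stress sensor Atf6 (0.74 ± 0.083) and the lipoprotein receptor Vldlr (1.44 ± 0.21). Vldlr was higher still in untransfected cells, at 12.30 and 12.47 against 11.68 to 12.23 on the clone arrays. Atf6 was at 11.24 and 12.27 there. Of 38 hypoxia and glycolysis genes 3 rose and 0 fell from line means, while the array fit called 2 higher and 2 lower, and 5 and 4 with the passage as a block. Car9, a carbonic anhydrase of the cell surface, had the largest difference of these, from 9.85 and 8.78 to between 11.37 and 11.84, and the angiogenic factor gene Vegfa rose by 0.64 ± 0.079. Vegfa was not called in the array fit (limma adjusted p = 0.109). Of 35 immediate early genes 5 rose and 2 fell. The phosphatase Dusp1 was at 9.48 and 7.70 against 9.87 to 10.39, and the orphan receptor Nr4a1 was at 7.24 and 7.50 against 7.76 to 9.70, higher at passage 43 in each line. The array fit called neither gene (limma adjusted p = 0.0743 and 0.312). Untransfected cells were at 10.62 and 10.77 for Dusp1, above every clone array, and at 7.82 and 8.04 for Nr4a1. Of 44 oxidative phosphorylation genes 1 rose and 2 fell, each by at most 0.51.

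**Figure D4:**
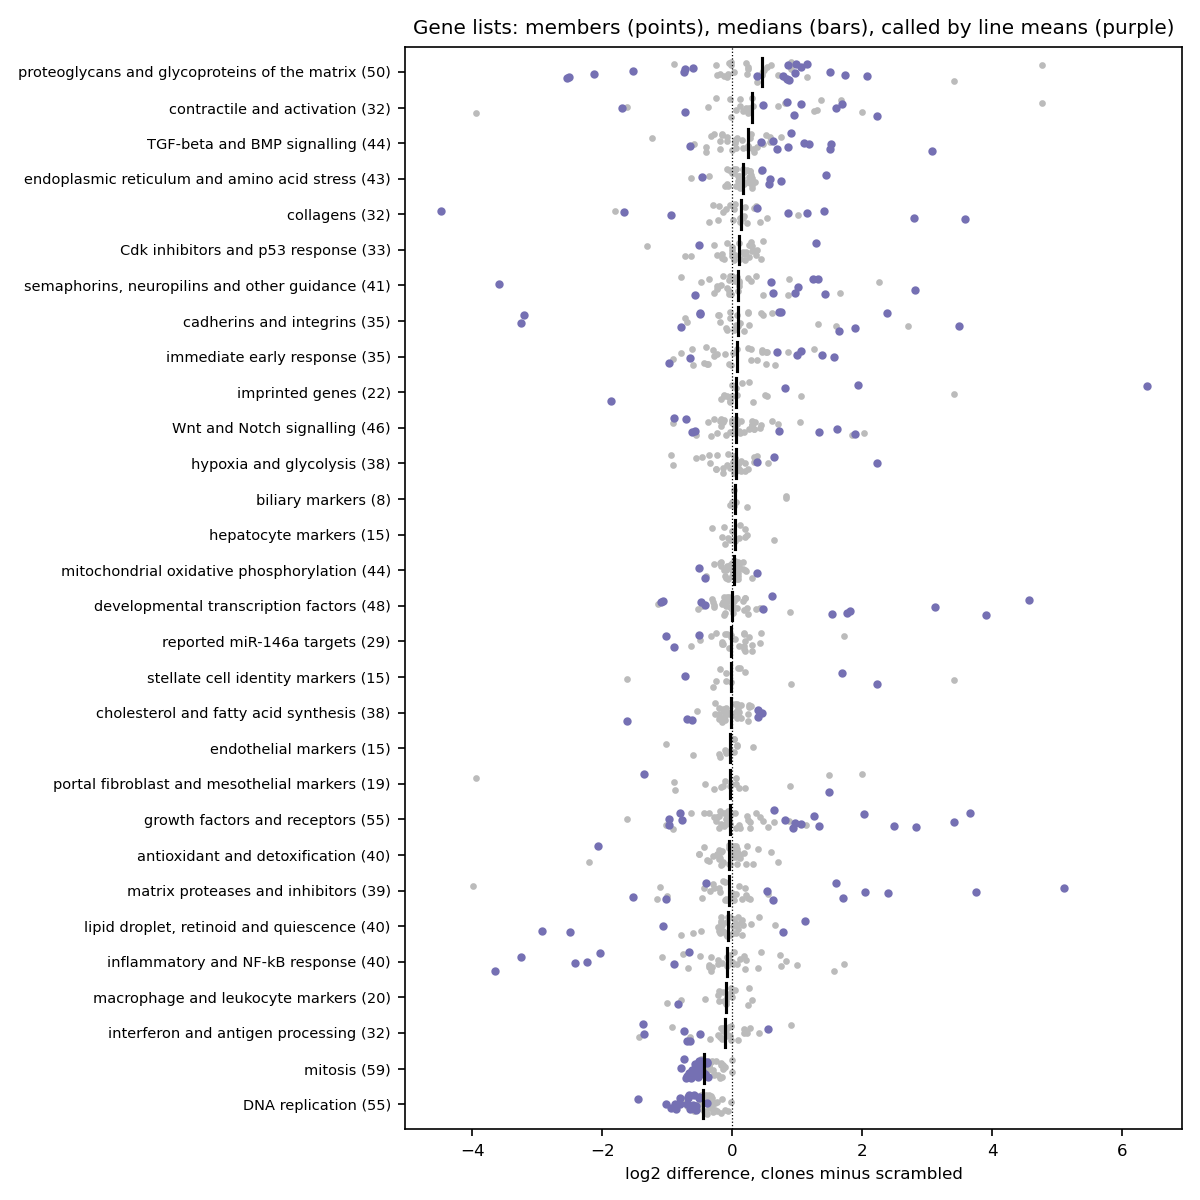
Log2 difference between clones and scrambled line (x axis) for every gene of the 30 lists (rows, with the number of genes tested), with black bars at list medians and purple points for genes called from line means. The mitosis and DNA replication points all lie below 0 within a narrow band, whereas matrix, protease and adhesion lists spread widely to both sides.

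Some probe sets were not above the floor in any clone. Of the 2212 called probe sets, 26 did not leave the floor on any clone array and 14 did not on either scrambled array. Myod1, the muscle determination factor, was at 7.03 and 6.40 on the scrambled arrays while every clone and untransfected array sat at the floor, at least 5.25-fold lower in the clones. Colec12, a scavenger receptor, was at 6.59 and 6.82 in the scrambled line only and at least 5.21-fold lower. Slc16a12 (at least 3.67-fold), Cnrip1 (2.17-fold) and Myrip (2.04-fold) were bounded in the same way. For Myrip the bound holds for that dim probe set alone. Its other probe sets were above the floor in the clones, with means of 6.19 and 5.47, and differed by -0.45 and -0.033. A group that sits at the floor has no measured spread.

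The clones themselves differed at few probe sets. A limma F test among S1, S4 and S5, taken from the fit of all 8 arrays, called 7 of 27356 (0.0256%), with 1005 at an unadjusted p under 0.05. Eif2s3y, a translation factor gene of the Y chromosome, was at the floor on both S5 arrays and between 10.33 and 10.44 on the S1 and S4 arrays. For Elavl2, an RNA-binding protein, 2 probe sets were above the floor in S4 alone, at 5.91 and 5.95 on the brighter one. Igf2bp3, another RNA-binding protein, was at 7.79 and 7.73 on the S1 arrays but lower in the other clones (5.10 and 4.68 for S4, 5.36 and 5.35 for S5), against 7.59 and 8.14 in the scrambled line. The blood group glycosyltransferase gene Abo3 sat at the floor in S1 and was brighter in the other clones, with 6.05 and 5.74 for S4 and 7.11 and 6.92 for S5. None of the 30 genes with the largest rises and falls was among the 7. This says little about them, because the line-mean test that chose them already weighs the spread between clones, and calls were rare. Against the scrambled line, S1 gave 1428 calls (5.22%), S4 1272 (4.65%) and S5 1180 (4.31%), and 489 probe sets (1.79%) were called higher and 356 (1.30%) lower in each of the 3. These comparisons share both scrambled arrays.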

How the data were processed

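RNA of 10 samples was hybridised to Affymetrix rat arrays, 2 passages of each of 5 lines. The deposited values are linear intensity per probe set. They came from RMA, per the submitters' processing notes, with version and settings not given in the sources used here. How values came to end at 20 is likewise not stated. Intensities were set to log2, and 57 control probe sets and the 3686 that never left the floor on the 8 arrays were dropped. Probe sets were named from the platform annotation: 19123 of 27356 had 1 symbol, 396 several and 7837 none, and 19063 matched GRCr8 by gene ID. Tests used limma 3.58.1 in R 4.3.3 (lmFit, eBayes, Benjamini-Hochberg over all probe sets). The array number limits the precision.

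Named genes were the 15 largest rises and falls among probe sets called from line means whose groups did not overlap (1 probe set a gene, that of smallest p), up to 8 genes of each list, the genes with the most and least even clones, and 8 fixed genes. For lists, the probe set of highest mean stood for a gene. The members and lists were chosen with earlier results of these data known. Same-numbered passages deviated together (correlations of 0.2659 to 0.6485 in 6 pairs of lines). The pairing comes from the passage numbers in the labels. The alternatives tried were quantile normalization, an offset of 32, a filter at mean log2 of 6, no filter, trend and robust eBayes, block fits, added untransfected arrays and leaving out a clone, passage or array.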

Additional observations from a re-analysis of the deposited data

Results flagged for a closer look

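In 6 of 179 named probe sets, 1 clone array stood away from the other 5 by more than Dixon's 95% limit, given as a share of the range of all 6, where about 8.95 would be flagged by chance. Clone S4 at passage 42 was the lowest array for Smad3 (0.8125 of the range), Col4a1 (0.7085) and Sfrp4 (0.6829). Clone S5 at passage 43 was the lowest for Axin2 (0.7725) and the highest for Olfm1 (0.6341). Clone S1 at passage 42 was the lowest for C3h15orf48 (0.6655). In each of these genes the 6 clone arrays still lay on one side of both scrambled arrays.

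The effects of the 3 clones against the scrambled line differed in 7 probe sets by the F test among clones. The log2 range between clone means was 6.11 for Eif2s3y, 1.61 and 1.51 for the probe sets of Elavl2, 2.69 for Abo3 and 2.87 for Igf2bp3. It was 2.06 and 2.88 for a pair of probe sets without a gene symbol. The former of these was lowest in S4, and the latter was highest in S4.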

How the results depend on the processing

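The counts of calls varied with the processing. All 2212 probe sets called from line means kept their sign under quantile normalization (2374 calls) and an offset of 32 (2510), and 2209 and 2204 kept it without passage 42 and without passage 43. These probe sets were chosen on the same arrays for differences that were large beside their SE. A kept sign was therefore likely in advance and says little about the direction. Without any filter on dim probe sets the counts were 740 from line means (44.05% of them higher, against 54.61%), 1496 in the array fit, 692 for S1, 730 for S4, 587 for S5 and 3 among the clones. A filter at a mean log2 of 6 gave 4 calls among the clones, and the offset of 32 gave 3. Trend and robust eBayes gave 3675 from line means and 11 among the clones. With the line as a random block the 8 arrays gave 5182 calls at an estimated correlation of -0.2774, and with the passage as a replicate block added they gave 5196. The passage as a replicate block in the array fit gave 4732 calls, 3305 for S1, 3107 for S4, 2944 for S5 and 31 among the clones. Adding the untransfected arrays gave 13 calls among the clones. In each case the cause was not tested.

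Leaving out a clone or a passage gave 0 to 1243 calls from line means. Leaving out 1 array gave 923 to 1470 in the array fit, 251 to 1023 for S1, 292 to 813 for S4, 204 to 798 for S5 and 1 to 2 among the clones. These fits have fewer samples, and a lone array was assumed to vary like the others. Without passage 43, the differences of Irf7 and of 2 Cxcr4 probe sets lost their sign: leaving out a passage gave -1.555 to 0.1507 for Irf7, -1.075 to 0.04996 for the brighter Cxcr4 probe set and -1.016 to 0 for the other. The other 176 named probe sets were not reversed in any of the 12 settings run for them. The filter at a mean log2 of 6 covered 155 of the 179, and single arrays left out and untransfected arrays added were run for the counts of calls alone. Of 95 other probe sets of the named genes, 6 had the opposite sign (for Adamts9, Cd248, Cdh11, Klf2, Nfkbiz and Sfrp4) and 0 of these was called by limma. The offset of 32 and the passage block for gene lists were chosen after seeing the data. Values at the floor limit what dim genes can show.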
